A study of Mus musculus and Homo sapiens with 12 samples.

Results

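The Lx elements are LINE-1 (L1) retrotransposons of mouse and related rodents, and their RNA was followed in an antibody precipitate of chromatin-associated RNA (caRNA). The members were every element of the mm10 repeat table whose family is L1 and whose subfamily name starts with Lx. These were 238931 of the 3158171 elements of the table and of its 626336 L1 elements, in 21 subfamilies, and 29134 of them had counts in at least 1 library. The L1Lx_I to L1Lx_IV subfamilies, with 39543 elements, carry another name and were not members.

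An L1 copies itself through RNA and reverse transcription, and most copies were cut short at the 5′ end when they were inserted. The Lx lineages are old in the mouse genome, whereas the L1Md lineages hold the young copies that can still transpose, and later repeats have often landed inside an old Lx copy. 5-methylcytosine (m5C) is a modified base of RNA, written at many sites by enzymes such as NSUN2, and TET2 is a dioxygenase that oxidises it.

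The samples were mouse embryonic stem cells (mESC) that were wild type (WT) or Tet2 knockout (KO, Tet2-/-), with 3 libraries of each. Both lines were gifts from another laboratory, and both grew in serum medium with LIF and the inhibitors CHIR99021 and PD0325901, after passages on gelatin to remove feeder cells. RNA that stayed with chromatin was precipitated with an anti-m5C antibody and sequenced (m5C-IP), in a study that asked how TET2 acts on m5C in this RNA. Only the precipitates were tabulated, with no input RNA and no spike-in column, so the amount of an RNA and its m5C enrichment cannot be told apart. A lower share of cells with a transcript and less of it per cell cannot be told apart either in such bulk samples. The table holds repeats alone, so neither markers of the cells nor the targeted gene could be checked. The study calls its genome-wide replicates biological, without saying whether the 3 libraries of a group were separate cultures, and p-values measure the spread between these libraries, part of which may be technical.

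The WT libraries had 2199886 to 3318565 counts over the 4 repeat classes DNA, LINE, LTR and SINE, and the KO libraries 1532029 to 1999210, so every KO library was shallower than every WT library. The Lx elements held between 61812 and 125055 of these counts. Most were seen thinly. Of the counted Lx elements, 70.7% had under 3 counts over the 6 libraries, 52.9% had counts in 1 library alone and 8.87% had counts in all 6. No WT library had counts for 8137 of them and no KO library for 9930, and the part of depth in this was not tested.

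The sequences of 6 Lx elements that the results below turn on are shown first, as windows of 200 bases in mm10, read 5′ to 3′ on the strand of the element and outside annotated exons. Each is the window of its element with the most matches to CNGGG, which are in capitals. This is the sequence context of the type I sites of NSUN2, and a match is not a measured m5C site.
Lx5c, the highest Lx element of the table (chr2:98661231-98661430, minus strand): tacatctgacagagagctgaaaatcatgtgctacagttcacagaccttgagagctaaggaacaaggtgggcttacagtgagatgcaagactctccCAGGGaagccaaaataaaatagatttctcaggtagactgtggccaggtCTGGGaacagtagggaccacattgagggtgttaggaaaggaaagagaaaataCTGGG
Lx8, the single element whose change passed the test (chr15:93232671-93232870, plus strand): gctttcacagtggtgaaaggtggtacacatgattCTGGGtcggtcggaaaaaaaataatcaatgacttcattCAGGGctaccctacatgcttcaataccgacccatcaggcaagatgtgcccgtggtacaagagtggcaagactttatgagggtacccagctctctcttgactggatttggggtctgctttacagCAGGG
Lx9, the element with the smallest p among those lower in KO (chr10:59025241-59025440, plus strand): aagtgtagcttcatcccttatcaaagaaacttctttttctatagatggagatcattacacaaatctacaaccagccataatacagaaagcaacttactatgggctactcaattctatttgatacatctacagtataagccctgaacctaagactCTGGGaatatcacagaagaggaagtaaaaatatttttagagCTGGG
Lx6, an element with no counts in KO (chr16:4386528-4386727, minus strand): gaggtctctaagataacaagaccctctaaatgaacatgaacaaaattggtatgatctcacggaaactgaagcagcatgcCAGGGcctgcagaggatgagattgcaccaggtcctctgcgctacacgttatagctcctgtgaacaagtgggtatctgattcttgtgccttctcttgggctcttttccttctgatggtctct
Lx8b, a high element that holds short repeated units (chr2:173635811-173636010, minus strand): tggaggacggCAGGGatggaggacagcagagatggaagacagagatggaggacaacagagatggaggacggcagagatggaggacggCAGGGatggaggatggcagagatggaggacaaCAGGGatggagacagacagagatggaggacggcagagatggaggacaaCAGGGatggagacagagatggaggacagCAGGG
Lx7, an element whose counts belonged to a repeat inside it (chr7:106669447-106669646, minus strand): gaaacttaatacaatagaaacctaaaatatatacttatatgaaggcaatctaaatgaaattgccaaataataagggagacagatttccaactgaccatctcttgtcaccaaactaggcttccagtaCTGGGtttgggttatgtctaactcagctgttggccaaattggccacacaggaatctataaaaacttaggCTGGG
The 6 windows held 3, 3, 2, 1, 5 and 2 matches in that order. For comparison, 40108 windows of the same length were laid end to end along the counted Lx elements that overlap no other listed element. Of these, 43.8% held at least 1 match on the strand of the element and 42.3% held at least 1 on the other strand. They were not picked for their matches, unlike the 6 shown. At least 3 matches were found in 3.55% of windows and at least 5 in 0.227%.

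The Lx5c element has a second feature, found after its values were seen. A pair of neighbouring stretches of 120 bases, the bases 559 to 678 and 679 to 798 of the element, were identical at 93.3% of positions, with 8 differences. They are shown because each holds the CENP-B box, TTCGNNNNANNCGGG, in capitals. CENP-B is a protein that binds this box in minor satellite, the tandem repeat of mouse centromeres.
First unit (chr2:98662643-98662762, minus strand): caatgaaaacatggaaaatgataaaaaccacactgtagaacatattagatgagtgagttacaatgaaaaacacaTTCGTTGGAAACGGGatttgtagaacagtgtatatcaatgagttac
Second unit (chr2:98662523-98662642, minus strand): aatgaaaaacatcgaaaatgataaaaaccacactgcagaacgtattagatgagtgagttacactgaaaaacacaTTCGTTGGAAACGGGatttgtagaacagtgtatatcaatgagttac
The box matched at 2 places on the strand of the element, from bases 633 and 753, and at 0 on the other strand. It was found on either strand in 10 of 29125 counted Lx elements with sequence, which is 0.0343%.

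**Figure D1:**
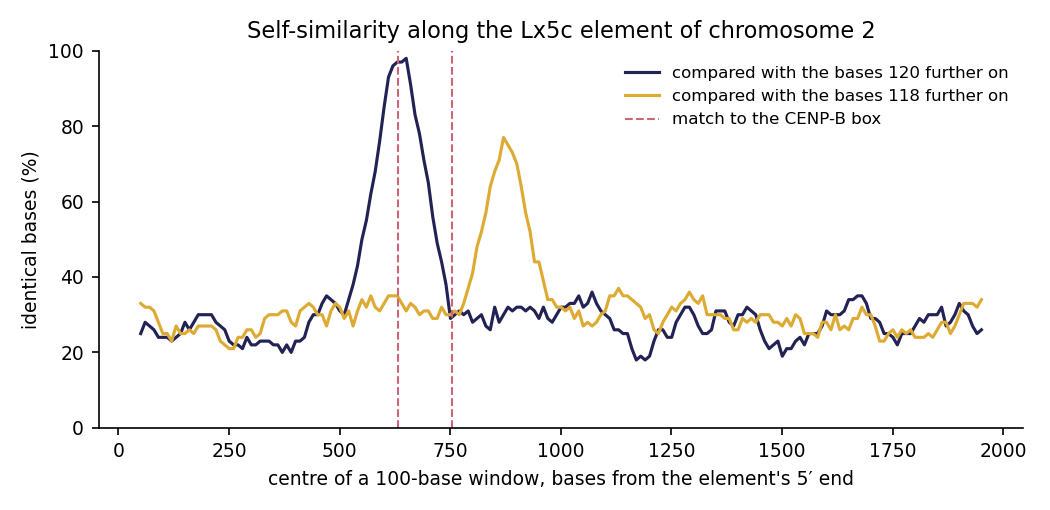
Percent of identical bases (vertical axis) along the Lx5c element (horizontal axis, position of the window in bases from the 5′ end), each window of 100 bases compared with the bases 120 or slightly fewer further on. The dark line peaks at 98% over the first 120-base unit, dashed lines mark both CENP-B boxes, and the light line has a lower peak further on.

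As a group, Lx took a larger part of the precipitated repeat RNA in KO. Lx elements held 3.74%, 3.85% and 3.77% of the counts of the 4 classes in WT, against 4.22%, 4.03% and 4.14% in KO. Every KO library was above every WT library, with means of 3.79% ± 0.059 and 4.13% ± 0.0939 (SD, n = 3 each), a log2 ratio of 0.13. Without the Lx5c element the shares were 3.48%, 3.50% and 3.46% in WT and 3.83%, 3.66% and 3.84% in KO, again without overlap, and the log2 ratio was 0.12. Without the 10 highest Lx elements the log2 ratio was 0.07, so the difference was smaller without these 10 elements. No p is given for such sums, because the members were chosen with results known.

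The Lx share is relative to the L1Md lineages, young and older together, which are much more abundant. L1Md held 57.0%, 57.0% and 59.4% of the counts in WT, against 50.8%, 52.3% and 51.0% in KO, lower in every KO library. The remaining L1 elements held 3.08% to 3.24% in WT and 3.09% to 3.38% in KO, and these ranges overlapped. Of the L1 counts alone, Lx held 5.85%, 6.01% and 5.69% in WT and 7.26%, 6.76% and 7.08% in KO, a log2 ratio of 0.27. On this measure the remaining L1 elements were also higher in every KO library. They held 4.83%, 5.05% and 4.62% in WT and 5.31%, 5.61% and 5.77% in KO, a log2 ratio of 0.2.

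The counts of an Lx element were often those of a younger repeat inside it. Elements are listed by their whole span, so that an Lx copy split by a later insertion also covers the insertion, and 6820 counted Lx elements held another counted element on the same strand. In 3402 of these (49.9%), the count of the Lx element equalled that of the elements inside it within 0.05 counts in every library. Among 389 Lx elements with at least 100 counts and exactly 1 counted element inside, that inner element held over 90% of the count in 332. At the other end, 9789 counted Lx elements overlapped no other listed element and are called clear here. Clear elements held 19.1% of all Lx counts. The table lists neither satellites nor simple repeats, so a clear element can still hold those.

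**Figure D2:**
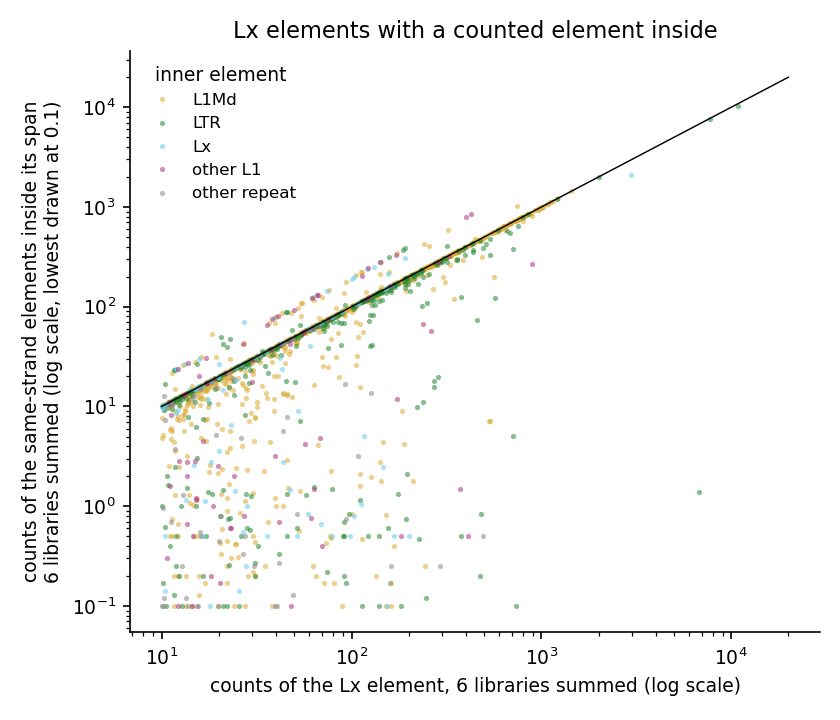
Counts of the Lx element (horizontal axis, summed over 6 libraries, log scale) against counts of the same-strand elements inside it (vertical axis, log scale), 1 point for each of 1776 Lx elements with at least 10 counts, coloured by the kind of element inside. Points on the line have equal counts, points above it hold several nested elements whose counts repeat, and in 71.1% of the elements the inner counts were over 90% of the Lx count.

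What lay inside went with the direction of the difference. Lx elements with L1Md inside, 33.4% of the Lx counts, held 1.34%, 1.35% and 1.37% of the 4-class counts in WT, against 1.23%, 1.20% and 1.25% in KO. They were lower in every KO library, like L1Md taken as a whole. Those with LTR retrovirus-like elements inside, 14.1% of the Lx counts, held 0.476%, 0.555% and 0.463% in WT and 0.598%, 0.681% and 0.644% in KO, higher in every KO library. Lx elements that were overlapped but had nothing counted inside on the same strand held 1.19%, 1.08% and 1.09% against 1.28%, 1.21% and 1.28%, also higher in every KO library. Lx elements with another Lx inside held 0.0376% to 0.095% and overlapped between the groups.

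Clear Lx elements, which no other listed repeat overlaps, were higher in KO, although some of their reads may fit other copies. They held 0.554%, 0.737% and 0.726% of the 4-class counts in WT, against 0.919%, 0.803% and 0.836% in KO, with means of 0.672% ± 0.103 and 0.853% ± 0.0596 (SD, n = 3 each) and a log2 ratio of 0.34. Without the Lx5c element they held 0.297%, 0.384% and 0.416% in WT and 0.528%, 0.429% and 0.530% in KO. The groups did not overlap in either set. Clear elements of the remaining L1 held 0.287%, 0.381% and 0.299% in WT and 0.321%, 0.41% and 0.552% in KO. Their log2 ratio was 0.41, and these groups overlapped. With the counts of the inner elements subtracted, all Lx elements together held 2.03%, 2.07% and 2.04% in WT and 2.60%, 2.40% and 2.48% in KO, a log2 ratio of 0.29. Repeats that overlap an Lx element only in part were not subtracted. Inner elements nested in one another were each subtracted in full, with no result allowed to be negative, so some counts were subtracted repeatedly. The percents held by inner elements, given below, add nested elements in the same way and are capped at the count of the Lx element. Both ways of treating nested elements were chosen after the data were seen.

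**Figure D3:**
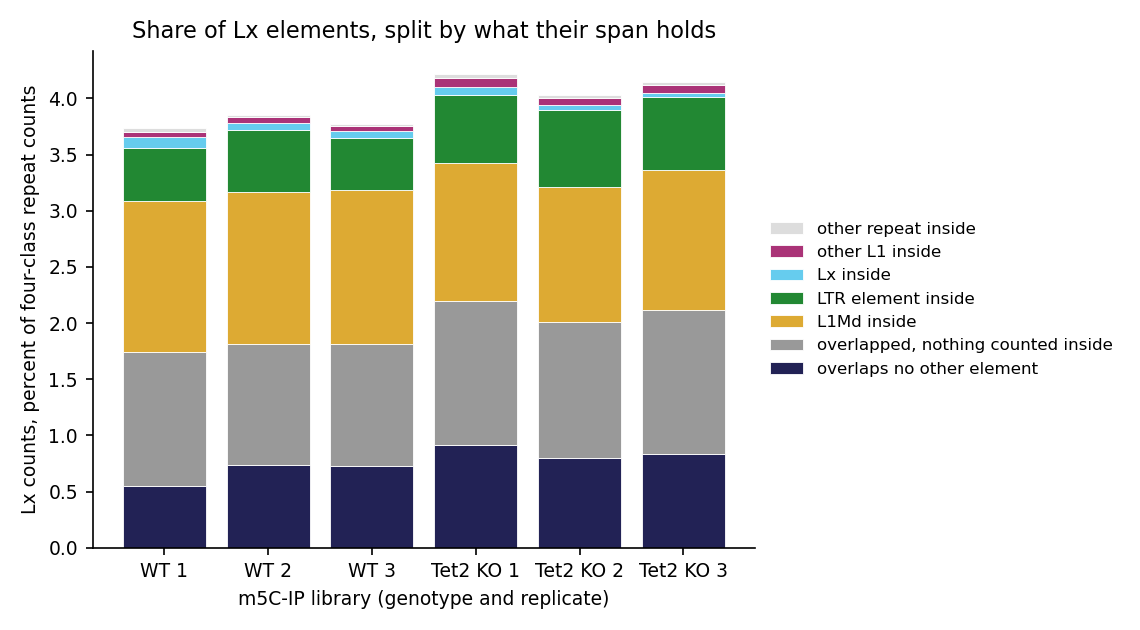
Lx counts as a percent of the 4-class counts (vertical axis) in each of the 6 libraries (horizontal axis), as bars stacked by what the span of the Lx element holds. The part with L1Md inside is lower in all 3 KO libraries (1.20% to 1.25% against 1.34% to 1.37% in WT), and the part that overlaps no other element, at the foot of each bar, is higher.

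By position, clear Lx elements in introns on the strand of the gene were the class of context whose groups did not overlap. These 1796 elements had 631, 1010 and 1067 counts per 1000000 (CPM) of the 4-class total in WT and 1931, 1249 and 1458 in KO, with means of 903 ± 237 and 1550 ± 349 (SD, n = 3 each). Their summed counts were 1388, 3202 and 3541 in WT and 3323, 1913 and 2914 in KO. Of these, the Lx8b at chr2:173635326-173638396 alone had 44.3, 1507.81 and 1376.62 in WT and 2024.7, 30.93 and 849.27 in KO. Its part in the difference was not tested. The 5518 intergenic clear elements had 1891, 1983 and 2462 in WT and 2334, 2402 and 2978 in KO. The 2164 clear elements in introns on the opposite strand had 398, 536 and 584 in WT and 792, 517 and 518 in KO. Both of these overlapped between the groups, as did the 310 exonic elements that remained without the Lx5c element, which is exonic itself and was left out of this split.

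Counted Lx copies were short and lay mostly outside genes. The median Lx element spanned 1847 bases and matched 983 bases of its consensus, and 10.2% matched over 5000 bases, against 28.9% of L1Md elements. The match reached within 50 bases of the consensus end in 64.4% of Lx, 81.6% of L1Md and 27.7% of other L1 elements. Intergenic positions held 63.5% of the counted Lx elements and introns 29.5%. Of those in introns, 38.2% were on the strand of the gene. The median GC content of Lx was 41.4%, with 2.94 CNGGG matches per 1000 bases, against 42.4% and 4.04 for L1Md. These values cover whole spans, with any repeat inside. Among clear elements the order of GC content was reversed, with 44.0% in Lx and 43.1% in L1Md. Their CNGGG matches per 1000 bases were 3.29 and 4.58. Clear Lx elements had a median span of 598 bases, and 56.4% were intergenic. Of those in introns, 45.4% were on the strand of the gene.

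Counts were then summed per subfamily and compared by edgeR. Of 547 subfamilies of any repeat tested, 2.01% were called at an adjusted p under 0.05. None of the 21 Lx subfamilies was called: edgeR called 0 at an adjusted p and 0 at an unadjusted p under 0.05 (15.9% of all tested). The DESeq2 Wald test called 0 and 0 Lx subfamilies as well, against 56 and 122 of all 547. The smallest adjusted p of an Lx subfamily in edgeR was 0.436. The median log2 change of the 21 was -0.11, from -0.76 to 0.28, with 6 above 0 and 15 below. The median of all 547 was 0.12. The 25 L1Md subfamilies had a median of -0.46, with 7 called, 6 of them lower in KO. The called subfamily that was higher in KO was L1MdA_I (log2 0.97 ± 0.08 SE, adjusted p = 0.00168 in edgeR).

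The sign of the Lx median depended on the scaling. It was -0.11 with TMM, -0.17 with DESeq2 size factors and 0.07 with library totals, while the median of all tested subfamilies was 0.12, 0.07 and 0.30. Relative to that median Lx was lower by 0.23, 0.24 and 0.23 log2 units, and 18 of the 21 lay below it in each case. Among clear elements the Lx median was 0.19 and that of all tested 0.13, with 10 of the 21 below it. Lx was thus higher in KO as a share of all counts, of which the abundant L1Md held less, and lower than the median subfamily, with no Lx subfamily called in either direction.

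**Figure D4:**
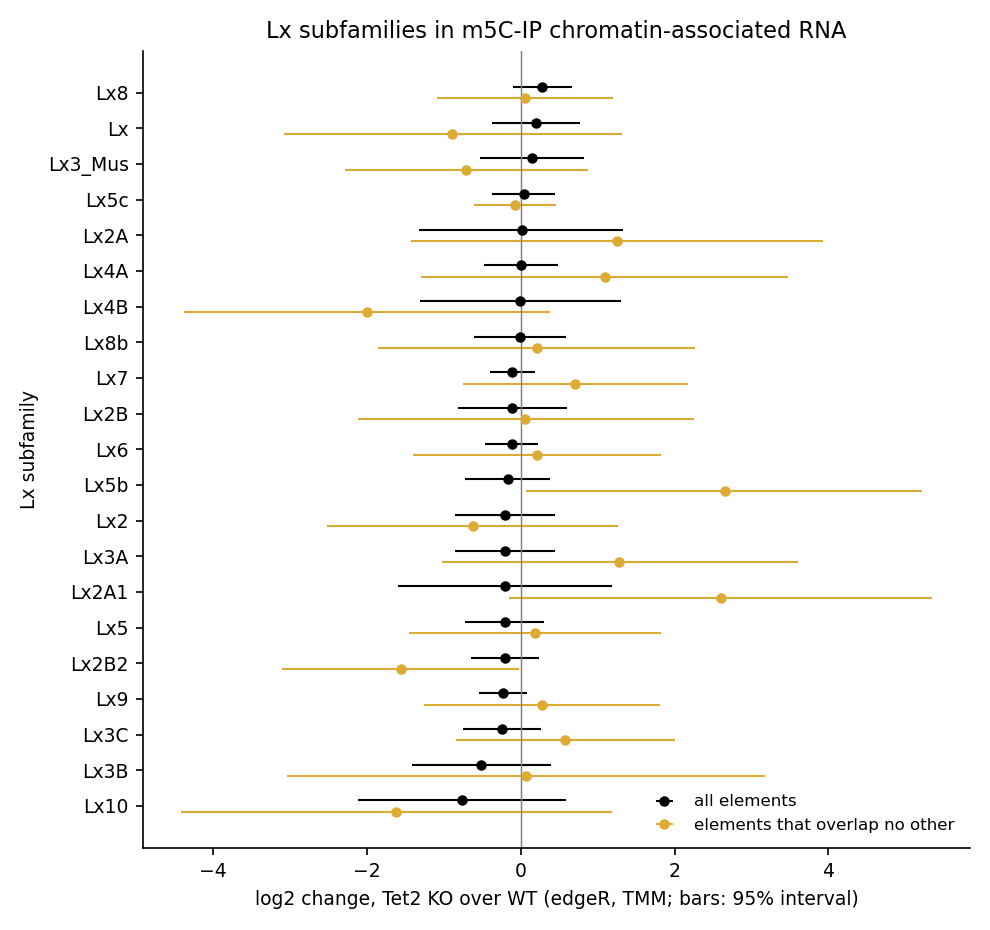
Log2 change, Tet2 KO over WT (horizontal axis), of each of the 21 Lx subfamilies (vertical axis), for all elements and for clear elements, with 95% intervals from edgeR as bars. The points for all elements lie between -0.76 and 0.28 and all their intervals cover 0, while those of clear elements are wider.

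The most abundant Lx subfamilies, in CPM after TMM scaling, a correction for the composition of each library, were Lx8, Lx7, Lx5c and Lx9. Lx7 had 4738, 5048 and 5641 CPM in WT and 5051, 4632 and 4635 in KO (log2 -0.11 ± 0.13 SE). Lx8 had 4133, 4755 and 5215 CPM in WT and 5648, 6678 and 4818 in KO (0.28 ± 0.16), the highest log2 change of the 21. Lx8 was thus above the WT range in 2 of the 3 KO libraries. Lx5c had 3955, 4888 and 4766 CPM in WT and 5658, 4407 and 3920 in KO (0.04 ± 0.18), and its single element held 66.7% to 80.3% of it. Lx9 had 5286, 4585 and 4491 CPM in WT and 4329, 3891 and 4029 in KO (-0.23 ± 0.13), which did not overlap.

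Lx9 was 1 of 3 Lx subfamilies (14.3%) whose CPM did not overlap between the groups, all lower in KO. Over all tested subfamilies, 21.6% did not overlap and 10.4% did so with KO lower. Lx2B2 had 1376, 1486 and 1609 CPM in WT and 1353, 1189 and 1333 in KO (-0.21 ± 0.19). Lx3C had 918, 900 and 959 CPM in WT and 808, 750 and 780 in KO (-0.25 ± 0.21). In all 3, elements inside held over 50% of the counts. These were 52.2% in Lx9, 56.8% in Lx2B2 and 64.7% in Lx3C. Sorted by their highest inner element, the Lx elements with most counts held L1MdTf_I in Lx9, L1MdTf_II in Lx2B2 and Lx5c in Lx3C. Among elements that overlap no other, the log2 change was 0.28 ± 0.65 for Lx9 and 0.58 ± 0.60 for Lx3C, of the opposite sign, and -1.56 ± 0.65 for Lx2B2, of the same sign.

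Subfamilies of middle abundance overlapped between the groups. Lx6 had 2313, 2440 and 2578 CPM in WT and 2327, 2206 and 2247 in KO (-0.11 ± 0.15). Lx8b had 2022, 2414 and 2547 in WT and 3188, 1781 and 1949 in KO (-0.01 ± 0.26). The subfamily named Lx had 1391, 2356 and 1838 in WT and 2382, 1755 and 2263 in KO (0.20 ± 0.24). In Lx6 a single WT library kept the groups from separating, whereas Lx8b had KO libraries on both sides of the WT range and Lx had them within or just above it. Lx2 had 1891, 1941 and 2197 CPM in WT and 1884, 2252 and 1100 in KO (-0.20 ± 0.28), with KO replicate 3 well below the others. Lx5 had 1529, 1464 and 2053 in WT and 1643, 1289 and 1425 in KO (-0.21 ± 0.22). Lx4A had 1433, 1586 and 1346 in WT and 1261, 1416 and 1693 in KO (0.00 ± 0.20). Neither Lx5 nor Lx4A differed beyond the spread between libraries.

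A further 5 subfamilies were lower in level and also overlapped. Lx5b had 1482, 1153 and 1387 CPM in WT and 1209, 945 and 1421 in KO (-0.17 ± 0.24). Lx3_Mus had 1166, 1275 and 1188 in WT and 900, 1278 and 1830 in KO (0.14 ± 0.29). Lx3A had 988, 914 and 1277 in WT and 852, 1182 and 716 in KO (-0.21 ± 0.28). Lx3_Mus and Lx3A had KO libraries both above and below WT ones. Lx2B had 664, 1131 and 780 CPM in WT and 646, 774 and 967 in KO (-0.11 ± 0.30). Lx4B had 993, 663 and 543 in WT and 410, 382 and 1397 in KO (-0.01 ± 0.55). The wide error of Lx4B came with KO replicate 3, which was above every WT library while the other 2 KO libraries were below them.

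The remaining subfamilies were low or uneven between libraries. Lx3B had 780, 694 and 405 CPM in WT and 325, 397 and 589 in KO (-0.52 ± 0.39). Lx10 had 1248, 416 and 311 in WT and 410, 493 and 263 in KO (-0.76 ± 0.57), the lowest log2 change of the 21. WT replicate 1 set the Lx10 value: without it the log2 change was 0.10. Lx2A1 had 211, 229 and 819 CPM in WT and 271, 396 and 422 in KO (-0.21 ± 0.59), and without WT replicate 3 its log2 change was 0.71. Lx2A, the lowest, had 104, 97.3 and 94.5 in WT and 152, 72.2 and 72.7 in KO (0.01 ± 0.56).

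Per length of consensus matched by all elements of a subfamily, counted or not, mean levels ran from 110 CPM per megabase in Lx2A to 496 in Lx5c. The others lay between 132 in Lx3_Mus and 277 in Lx8. Lx elements were also sorted by the highest same-strand element inside them. The kind of inner element whose Lx elements had most counts differed between subfamilies. It was RLTR4_MM-int, the internal part of a retrovirus-like element, in Lx8, the VL30 element MMVL30-int in Lx7, and RLTR6_Mm, an LTR, in Lx4A.

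Among clear elements alone, the errors were larger and the signs moved. The median SE was 0.87, against 0.24 with all elements, and 14 of the 21 subfamilies changed sign. With inner counts subtracted 7 changed sign. In the clear set, edgeR again called 0 Lx subfamilies (2.74% of 402 tested), and 2 had an unadjusted p under 0.05 (12.7% of all). Lx2B2 had clear counts of 185, 655 and 346 in WT and 86.9, 81.3 and 121 in KO (log2 -1.56 ± 0.65, adjusted p = 0.388 in edgeR). Lx5b had clear counts of 67.4, 92 and 117 in WT, against 55.4, 163 and 1228 in KO (2.65 ± 1.09, adjusted p = 0.388 in edgeR). KO replicate 3 was far above the other libraries, with 613.67 counts from the Lx5b at chr5:95041760-95042307, which had none elsewhere, and KO replicate 1 was below every WT library.

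Single elements were tested next, and 936 of 19030 tested elements were Lx. edgeR called 1 of them, and 0.0473% of all elements tested. At an unadjusted p under 0.05 there were 166 Lx elements (17.7%, against 21.0% of all tested), 112 higher in KO (12.0%, against 13.1%) and 54 lower (5.77%, against 7.92%). The DESeq2 Wald test called 78 Lx elements (8.33%, against 11.3% of all tested), 60 higher and 18 lower. Inner elements held over 50% of the counts in 590 of the 936, and 15 of the 936 were clear. The groups did not overlap, on the TMM scale, in 134 Lx elements with KO higher (14.3%, against 15.1% of all tested) and in 109 with KO lower (11.6%, against 12.6%).

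The called element was an Lx8 at chr15:93232470-93246924 on the plus strand, which spans 14455 bases with 926 bases of consensus. It had 330.14, 330.16 and 521.20 counts in WT, against 1526.14, 2287.19 and 1800.47 in KO, or 159, 115 and 173 CPM and 1110, 2010 and 1220 CPM. Every KO library was well above every WT library, and the log2 change was 3.28 ± 0.32 (SE, n = 3 each, adjusted p = 0.0431 in edgeR). The call was lost without any 1 library, with library totals, with DESeq2 size factors, with a minimum count of 3 and with the replicate number as a block. It was kept by the DESeq2 Wald test and among all elements with at least 3 counts, while the log2 change stayed between 2.95 and 3.43. Listed repeats inside on the same strand held 0.0206% of its counts. Its span also holds Gm24447, annotated as a miscellaneous RNA on the same strand, and exons of Gxylt1, a xylosyltransferase gene, on the opposite strand, and their part in the difference was not tested.

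The element with the highest count was the Lx5c at chr2:98661195-98663320 on the minus strand, sixth of all elements of the table by mean count. It had 5636.72, 11195.56 and 10285.65 counts in WT, against 6732.94, 5729.63 and 6116.77 in KO. On the scale of the element fit these were 2720, 3910 and 3420 CPM in WT and 4880, 5040 and 4140 in KO, so the groups did not overlap there, and the log2 change was 0.48 ± 0.18 (95% interval 0.05 to 0.92, adjusted p = 0.200 in edgeR). It held 0.256%, 0.353% and 0.310% of the 4-class counts in WT, against 0.391%, 0.374% and 0.306% in KO, which overlap. The difference thus did not pass the test, and with library totals the log2 change was 0.24.

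This element is clear of other listed repeats, but it holds the repeated units shown above and overlaps an exon of Gm10801 on the opposite strand. Of its 2096 words of 31 bases, 27.4% occur once in the genome. The table gives 1 value for the whole element, so reads of its L1 sequence and reads of the repeated stretch cannot be told apart.

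Some clear elements held short repeated units. A stretch of 100 bases that matched another in the same element at 90 or more positions, 10 to 200 bases further on, was found in 594 of 9483 clear elements long enough (6.26%). These held 57.0% of the counts of the 9483 over the 6 libraries, and 22.5% without the Lx5c element. Among 100 of them with at least 100 counts, 12 held such a stretch (12.0%). The Lx8b element at chr2:173635326-173638396 is one of them. It had 44.30, 1507.81 and 1376.62 counts in WT, against 2024.70, 30.93 and 849.27 in KO, with a low library in each group, and its log2 change of 1.04 ± 1.39 was within the spread between libraries.

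The other high Lx elements mostly took the counts of a retrovirus-like repeat or an L1 inside. The Lx8 at chrX:15473385-15483143 had 786, 844 and 624 CPM in WT and 985, 1440 and 1310 in KO (0.73 ± 0.22, adjusted p = 0.134 in edgeR), and inner repeats, mainly RLTR4_MM-int, held 94.1% of its counts. The Lx7 at chrX:144270886-144281265 had 658, 678 and 518 CPM in WT and 686, 691 and 764 in KO, with 98.9% held by inner repeats, mainly MMVL30-int. Both were higher in each KO library on this scale, and for the Lx7 the log2 change of 0.21 became -0.05 with library totals. The Lx4A at chr19:24907873-24908729 had 74.9, 166 and 128 CPM in WT and 343, 238 and 170 in KO, and RLTR6_Mm held 100.0% of its counts. The Lx3C at chr5:77622931-77635218 had 473, 158 and 368 CPM in WT and 145, 135 and 52.8 in KO (-1.59 ± 0.53, adjusted p = 0.162 in edgeR), with 70.8% held by inner elements, mainly Lx5c. The Lx8 at chrX:107045560-107057869 had 119, 132 and 141 CPM in WT and 96.4, 92.4 and 97.4 in KO, and an L1MdTf_II held 100.0% of its counts.

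Both of these last elements were lower in every KO library. A further pair among the 10 highest overlapped between the groups. The Lx6 at chr4:48341830-48350278, which overlaps an exon of Gm12435 on its own strand, had 10.1, 0.349 and 114 CPM in WT and 419, 421 and 71.0 in KO. An Lx of chromosome 18 had 80.2, 246 and 146 CPM in WT and 6.52, 144 and 6.09 in KO.

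**Figure D5:**
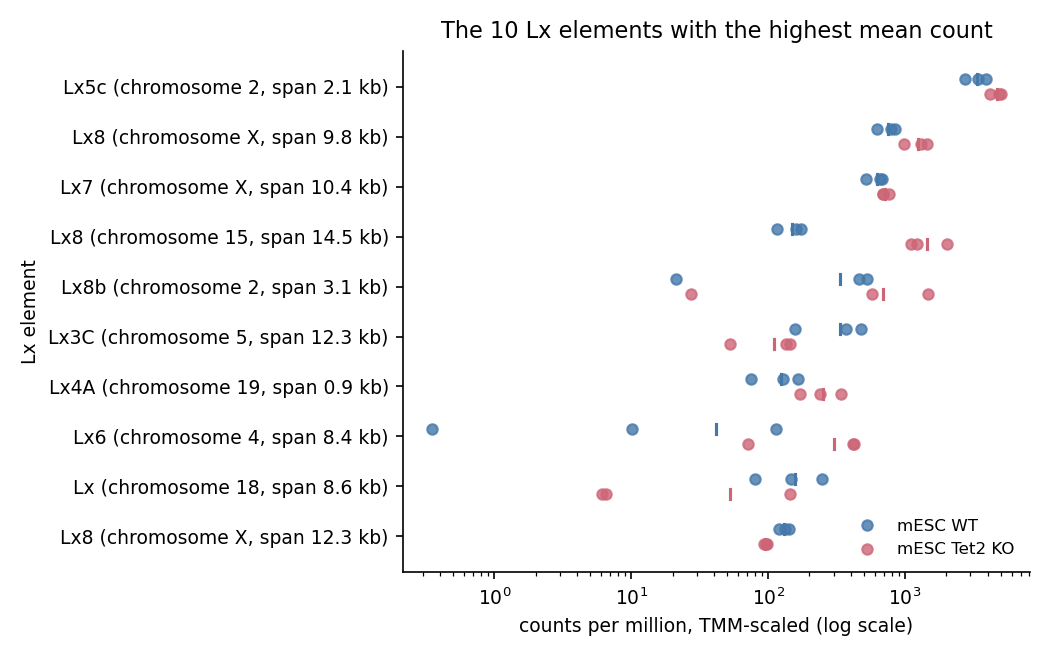
CPM after TMM scaling (horizontal axis, log scale) of the 10 Lx elements with the highest mean count (vertical axis, with chromosome and span), 1 point per library and a tick for each group mean. The Lx8 of chromosome 15 lies between 115 and 173 in WT and between 1110 and 2010 in KO, and the Lx8b has a low library in each group.

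Beyond the called Lx8, the 4 Lx elements with the smallest p among those higher in KO took nearly all their counts from an element inside. The Lx2 at chr6:81274648-81283047 had 1.45, 0.698 and 0.332 CPM in WT and 31.9, 7.92 and 18.3 in KO, with 98.6% held inside, by MMERVK10C-int. The Lx7 at chr7:106655412-106670799 had 0.966, 1.05 and 0.332 CPM in WT and 7.25, 53.7 and 24.3 in KO. For this Lx7 100.0% was held inside, a capped sum that adds L1_Mur3 and the elements nested in it. The Lx at chrX:165735200-165747921 had 8.21, 11.2 and 9.97 CPM in WT and 133, 32.6 and 98.1 in KO, with 100.0% inside, by L1MdA_II. The Lx3A at chrX:22017421-22028883, which holds an L1MdA_I, was also higher in every KO library (2.32 ± 0.44). None of the 4 passed the test, each with an adjusted p of 0.101 in edgeR.

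The 5 Lx elements with the smallest p among those lower in KO had most of their counts outside any same-strand element within their span. However, 1 of them shared its counts with a partly overlapping L1. The Lx9 at chr10:59024581-59035153, in an intron of Sh3rf3 on the strand of the gene, had 130.03, 410.73 and 219.03 counts in WT, against 3.72, 7.20 and 4.00 in KO (-4.57 ± 0.60, adjusted p = 0.0782 in edgeR). An L1MdA_II inside this Lx9 on the opposite strand had 134.69, 1278.45 and 588.64 in WT and 45.67, 23.22 and 37.35 in KO. That L1MdA_II was thus also lower in every KO library, and its part in the difference was not tested. The Lx6 at chr16:4386471-4386727, a clear element in an intron of the adenylate cyclase gene Adcy9 on the strand of the gene, had 25.2, 48.6 and 18 counts in WT, against 0 in each KO library. Against a floor of 3 counts per library it was at least 5.14-fold lower in KO (adjusted p = 0.101 in edgeR). Neither group of libraries overlapped the other in this Lx9 and this Lx6, and neither element passed the test. The Lx9 at chr14:89384043-89386710 had 128.28, 110.47 and 59.33 counts in WT, against 2.27, 5.68 and 3.45 in KO. The Lx2 at chr3:44237379-44250584 had 116.88, 70.42 and 120.81 in WT and 7.28, 7.47 and 12.98 in KO. An L1MdA_I inside it on the opposite strand had 86.33, 124.1 and 152.46 in WT and 98.5, 86.54 and 142.03 in KO. The Lx9 at chr11:70310405-70317282, with an exon of Alox12e on the opposite strand, had 76.78, 23.13 and 25.12 in WT and 0.38, 0 and 0.82 in KO, and an L1MB2 that overlaps it in part on the same strand had exactly these counts. For these 3 the adjusted p was 0.101 in edgeR, and all WT libraries were above all KO libraries.

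Among the 15 clear elements tested, 3 had an unadjusted p under 0.05, against 21.0% of all 19030 elements tested. The median log2 change of the 15 was 0.27, against 0.03 over all elements tested. Besides the Lx5c and the Lx6 of Adcy9, the third was an Lx6 at chr1:138526106-138527660 in an intron of the kinase gene Nek7, with 39.56, 47.60 and 42.30 counts in WT, against 2.30, 3.00 and 8.40 in KO (-2.36 ± 0.60, adjusted p = 0.108 in edgeR). WT was above KO in every library, but 1.31% of its 31-base words occur once in the genome, so its reads may belong to other copies. Of the remaining clear elements, an Lx8 at chrX:139764448-139765010 had 50.2, 24.1 and 62.5 CPM in WT and 77.5, 83.6 and 68.3 in KO, without overlap (0.75 ± 0.44), and the other 11 overlapped. The 11 include the Lx8b of chromosome 2, a pair of Lx6 on chromosome 4 and a pair of Lx8 on chromosome 12. The Lx6 pair had nearly the same counts in every library, with 15.67, 270.69 and 14.85 counts for one copy and 15.01, 298.54 and 17.15 counts for the other in WT, so that reads could be split between copies. The Lx8 pair was less equal, with 152 counts and 73.5 counts in WT replicate 1.

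Counts in a single library were common among clear elements. Of 104 clear Lx elements with at least 100 counts, 69 had over 90% of them in 1 library. By library these were 6, 11 and 15 elements in WT and 12, 8 and 17 in KO, so such elements were present in every library. Their part in the higher share of clear elements in KO was not tested.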

How the data were processed

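The deposited table holds the estimated counts that the authors obtained for each repeat element and m5C-IP library of mESC. Per the study's methods, reads were trimmed with Trimmomatic 0.39, aligned with HISAT2 2.1.0 to mm10, the transcriptome and m5C spike-ins, and deduplicated with Picard. Elements were counted with featureCounts on repeat fragments merged into whole copies. The options are not given in the sources used here. Values are fractional (43.7% of the non-zero Lx values were whole numbers), and how reads that fit several elements were treated is not stated.

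Here counts were summed per subfamily, or taken per element, over the 4 classes, rounded to whole numbers and compared between Tet2 KO and WT with the edgeR 4.0.16 quasi-likelihood test (R 4.3.3) after filterByExpr and TMM. Two-sided p-values were adjusted over everything tested at that level (Benjamini-Hochberg), and calls were made at 0.05. Standard errors (SE) came from the F statistic. DESeq2 1.42.0, other scalings and filters, a replicate block and each library left out were alternatives. The edgeR fit was tested on simulated data. The members and lists were chosen with earlier results of these data known. Named were every Lx subfamily with a mean of at least 50 counts (all 21), the 10 Lx elements with the highest mean count, and the 5 in each direction with the smallest p. The clear set, subtraction, self-match, CENP-B and single-library limits were added after seeing the data. Sequence came from the RefSeq copy of mm10 and genes from a GENCODE release that may not be the authors' own. All elements lay within the chromosomes of that copy, apart from 9 counted Lx elements without reference sequence. The human libraries of the series were not used.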

Additional observations from a re-analysis of the deposited data

How the results depend on the processing

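The count of 0 called Lx subfamilies held under all 18 alternatives run. The single called Lx element was the result that moved: 0 were called with DESeq2 size factors, library totals, a minimum count of 3 and the replicate block, 0 (lowest and highest) without each library in turn, 1 (the same element) among all elements with at least 3 counts, and 78 by the DESeq2 Wald test, which also called the other 9 elements named for a small p. The log2 change of the Lx8 of chromosome 15 was 3.24 with size factors, 3.01 with totals, 3.29 with the minimum count of 3, 3.24 with the replicate block and 2.95 to 3.43 without a library. The cause was not tested, beyond fewer libraries in the last.

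The log2 ratio of the Lx share of all counts, 0.13, was 0.07 without the 10 highest Lx elements. In alternatives added after seeing the data it was 0.32 for clear elements as a share of all clear counts, 0.42 without the Lx5c element too, and 0.28 with inner counts subtracted throughout. That of the share of L1 counts, 0.27, became 0.49 and 0.43 for clear and subtracted counts.

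Signs also changed. With size factors and with the DESeq2 Wald test, Lx2A, Lx4A and Lx5c had -0.03, -0.05 and -0.01. They had -0.06, -0.07 and -0.03 with a minimum count of 1 and -0.08, -0.09 and -0.05 with no filter. With library totals Lx2A1 and Lx5b had 0.01, Lx2B, Lx6 and Lx7 had 0.07, Lx4B 0.18, Lx8b 0.16, and the Lx7 element chrX:144270886 had -0.05. Lx4B had 0.01 and Lx8b 0.00 without the 10 highest elements, and Lx4B 0.00 without the Lx5c element. The replicate block gave -0.09 for Lx2A, 0.07 for Lx2A1 and -0.01 for Lx4A. Same-numbered libraries did not deviate together (correlations -0.0928, -0.035 and -0.0447), so the numbers were not taken as pairs.

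Leaving out 1 library gave ranges that crossed 0 of -1.10 to 0.10 for Lx10, -0.42 to 0.03 for Lx2, -0.45 to 0.20 for Lx2A, -0.54 to 0.71 for Lx2A1, -0.28 to 0.13 for Lx2B, -0.16 to 0.36 for Lx3_Mus, -0.13 to 0.09 for Lx4A, -0.89 to 0.32 for Lx4B, -0.13 to 0.15 for Lx5c, -0.32 to 0.15 for Lx8b and -0.17 to 1.60 for the Lx8b element of chromosome 2. Depth limits single elements most, since 70.7% of counted Lx elements had under 3 counts in all and most were not tested.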
